A study of Mus musculus with 8 samples.

Results

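The genes described here are 37 components of the Wnt pathway, namely 13 Wnt ligands, 9 Frizzled receptors, 2 Lrp co-receptors, Lgr4 and Rspo1, 4 secreted antagonists, 4 genes of the transcription arm and 3 feedback inhibitors. They were chosen by gene symbol and role, with earlier results of these data known, and all 37 were found among the 23171 genes of the deposited count table. The samples were epidermis of mice that had received imiquimod, an agonist of Toll-like receptor signalling used to give mouse skin a psoriasis-like inflammation. The series holds 4 libraries from Hnrnp-u knockout mice, in which the deletion was specific to the epidermis (cKO), and 4 libraries from control mice (WT). The series title links hnRNP-U, an RNA-binding protein of the nucleus, with TNF-α in psoriasis. Both genotypes received imiquimod, so no value without treatment is given, and the labels name the cells as keratinocytes and the batch as the same for all. The sources used here give neither the promoter or Cre line behind the deletion nor the strain, age and dose.

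Wnt ligands are secreted lipid-modified proteins that bind Frizzled receptors together with Lrp5 or Lrp6. In the canonical branch this binding stops the destruction of β-catenin, which then enters the nucleus and works with TCF/LEF factors on target genes, among them genes that damp the pathway. In skin the pathway is known for its part in the formation and cycling of hair follicles and in the upkeep of epidermal stem cells. Other branches act without β-catenin and orient cells within the epithelium.

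Total counts ran from 37158621 to 38865722 per library, with 18265 to 18992 genes detected in each. Hnrnpu, the deleted gene, stood at 190, 373, 355 and 312 counts scaled to library size (CPM) in cKO replicates 1 to 4. It stood at 455, 424, 431 and 439 CPM in WT replicates 1 to 4. Every cKO library lay below every WT library, and the log2 fold change of -0.51 did not pass the genome-wide test (edgeR adjusted p = 0.191). The sources used here do not say which part of the gene was deleted, and the counts cover the whole gene. The labelled cell type was met by its markers, since 10 keratinocyte genes summed to 65873 to 97505 CPM in cKO and 73901 to 96874 CPM in WT. Against that, 10 markers of dermal fibroblasts summed to 1.12 to 3.98 CPM in cKO and 1.20 to 10.7 CPM in WT. Markers of the outer root sheath and follicle stem cells (12 genes, Sox9, Lgr5 and Lgr6 among them) summed to 4286 to 6448 CPM in cKO and 3350 to 3499 CPM in WT, with no overlap. Most of these sums came from Krt79 and Krt17. Krt79 was at 2426 to 3130 CPM in cKO and 1119 to 1673 CPM in WT. Krt17 overlapped, at 1389 to 2941 CPM in cKO and 1319 to 2039 CPM in WT. Sums for 8 melanocyte markers were 61.1 to 123 CPM in cKO and 35.9 to 53.7 CPM in WT. All 10 markers of sebocytes, the lipid-making cells beside the follicle, had positive log2 fold changes, with a median of 1.29. Of these, 1 was called (10% against 1.32% of all genes tested) and 8 had an unadjusted edgeR p below 0.05 (80% against 18.6%). Groups did not overlap for 4 (40% against 11.1%). The 10 sebocyte markers summed to 1031 to 3275 CPM in cKO and 714 to 1298 CPM in WT. The part of these other cells in the values below was not tested. In whole epidermis, fewer cells of a type and less RNA per cell cannot be told apart.

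Of the 37 members, 34 passed the count filter and were tested, and 1 of them passed the genome-wide test. Wnt10b, a ligand of the canonical branch that is known to promote hair growth in mice, fell in cKO. The member calls made up 2.94% of those tested, against a background of 1.32% of all 14004 genes tested and 0.65% of them for lower calls. An unadjusted p below 0.05 was reached by 11 members, 5 with higher and 6 with lower values in cKO, which is 32.4% of those tested against 18.6% of all genes. The cKO libraries lay wholly outside the range of the WT libraries for 3 members, all of them lower, which is 8.82% against 11.1% of all genes. The fitted log2 fold change was positive for 21 members and negative for 13, with a median of 0.11, against a median of 0.01 over all genes; Wnt3a, Wnt7b, Fzd8 and Znrf3, all near 0, turned positive when libraries were scaled by size only. Directions were mixed within most roles. The sources used here do not give the strand setting of the counting. Reads of Wnt5a, Wnt7b, Wnt11, Fzd5, Fzd6, Lef1, Ctnnb1 and Axin2 therefore cannot be told apart from those of genes that overlap their exons on the other strand in the GENCODE annotation.

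**Figure D1:**
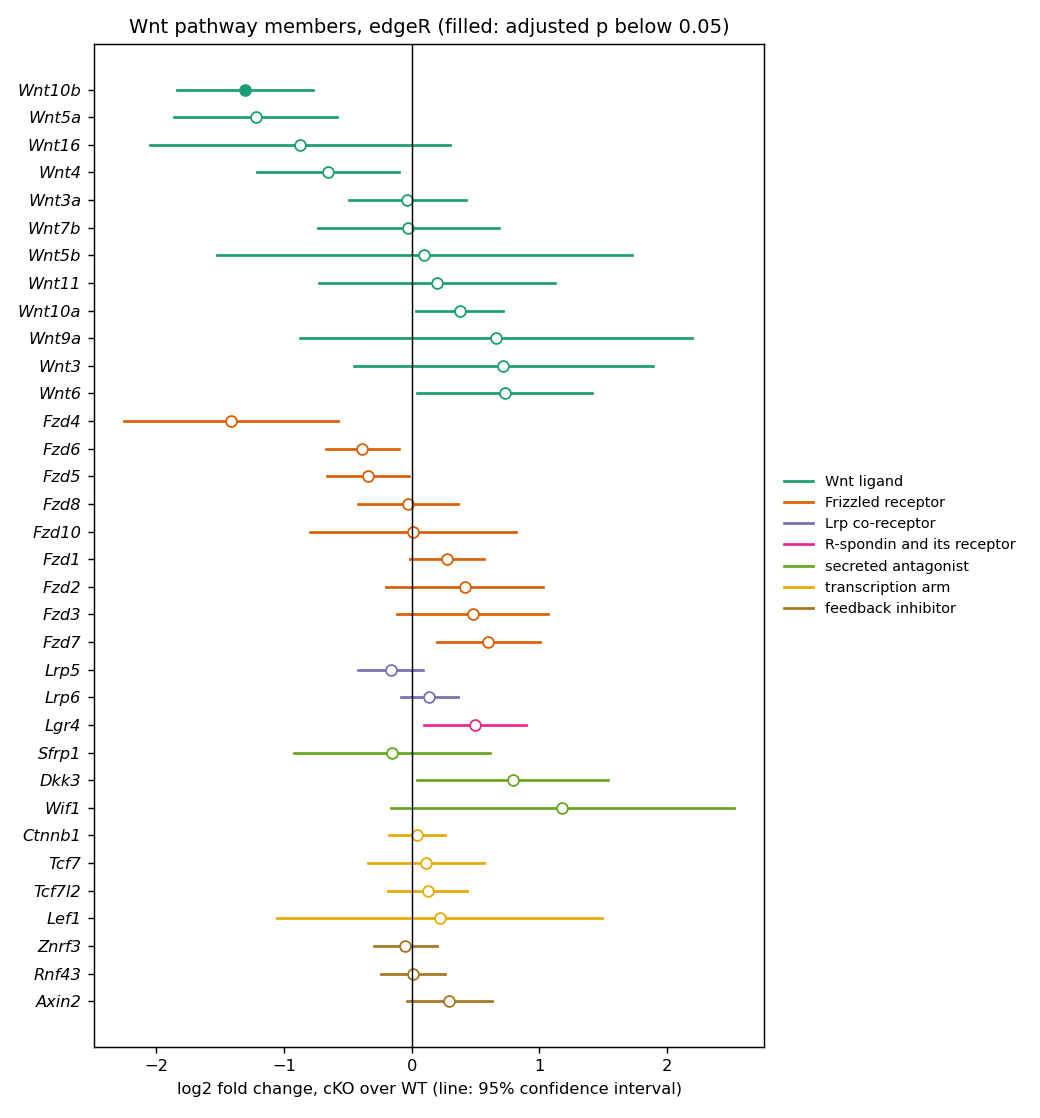
Fitted log2 fold change, cKO over WT, of the 34 members tested, with 95% confidence intervals, grouped by role. Wnt10b, at -1.31, is the member that passed the edgeR test over all genes, while Fzd4, at -1.41, and Wnt5a, at -1.22, lie as low with wider intervals.

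Wnt4, a ligand made by keratinocytes, was the most abundant ligand by length-normalised level. The deposited FPKM values, which divide counts by gene length and library total, put it at a mean of 51.6 over the 8 libraries. Wnt10a, a ligand whose loss in people causes ectodermal dysplasia, followed at 23.9 FPKM, and its range over libraries overlapped that of Wnt4. Wnt7b averaged 11.5, Wnt3 4.61, Wnt3a 3.13, Wnt16 2.26 and Wnt5a 1.85 FPKM. The called ligand Wnt10b averaged only 0.933 FPKM, beside Wnt6 at 0.908 and Wnt11 at 0.783. Wnt9a, Wnt5b and Wnt7a lay lowest, at 0.123, 0.116 and 0.0720 FPKM. Between neighbours in this order, the libraries separated without overlap only between Wnt10a and Wnt7b and between Wnt11 and Wnt9a.

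Among Frizzled receptors, the order of mean FPKM was Fzd6 (22.9), Fzd10 (15.3), Fzd7 (11.4), Fzd1 (10.4), Fzd2 (2.89), Fzd5 (1.96), Fzd8 (1.38), Fzd3 (0.799) and Fzd4 (0.152). The libraries of neighbours separated without overlap only between Fzd1 and Fzd2 and between Fzd3 and Fzd4. Ctnnb1, which encodes β-catenin, was the most abundant of all 37 members at 175 FPKM.

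**Figure D2:**
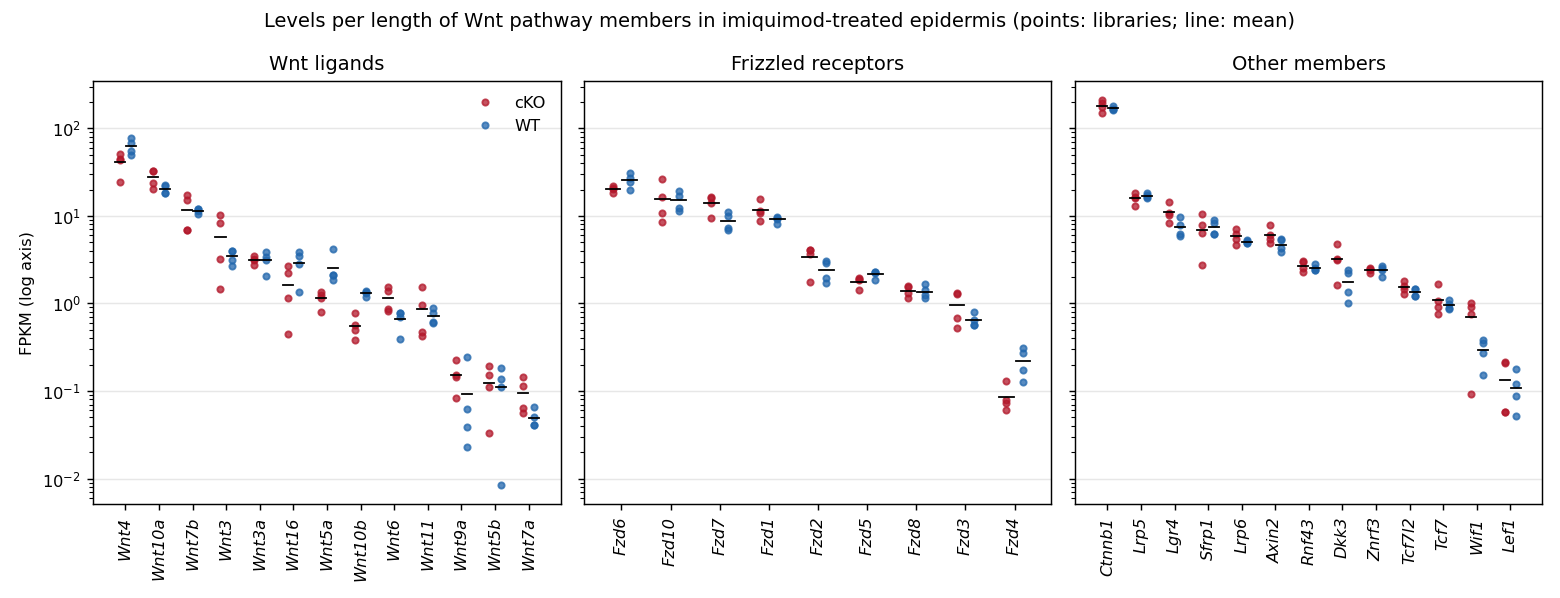
FPKM on a log axis of every member with a mean above 0.05 FPKM, each point a library and each line the mean of 4, cKO left of WT. Wnt4 leads the ligands and Fzd6 the Frizzled receptors, with cKO means below WT means in both, and Ctnnb1 lies highest at 175 FPKM over all libraries. Rspo1 and Dkk2 are not drawn.

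Wnt10b stood at 1.30, 2.07, 2.46 and 1.55 CPM in cKO replicates 1 to 4. In WT replicates 1 to 4 it stood at 4.72, 4.62, 4.80 and 4.12 CPM. The WT libraries lay close together, and the highest cKO library was well below the lowest of them. Its mean was 1.85 ± 0.522 CPM in the cKO libraries, against 4.57 ± 0.306 CPM in the WT libraries (SD, n = 4 each), a 2.47-fold fall. The fitted log2 fold change came to -1.31 ± 0.24 (SE), with a 95% confidence interval of -1.84 to -0.77 and an edgeR adjusted p of 0.0362. A two-sided exact permutation test gave p = 0.0286, the least possible with 4 against 4 libraries. These values rest on 50 to 180 counts per library. The call was close to the threshold: with 1 library left out it held without cKO replicate 2 or 3 (edgeR adjusted p = 0.0365 and 0.0455), and was lost without cKO replicate 1 (0.0729) or 4 (0.0587). It was also lost without WT replicate 1 (0.0790), 2 (0.0881), 3 (0.0999) or 4 (0.103), the log2 fold change over these 8 fits running from -1.47 to -1.17. Of 12 markers of the hair matrix, cortex and inner root sheath, 8 were tested and 1 fell (12.5% against 0.65% of all genes), while 3 had lower values in cKO without overlap (37.5% against 11.1% of all genes without overlap in either direction). The called marker was Tchh, a structural protein of the inner root sheath, at 9.65 to 12.9 CPM in cKO and 18.6 to 37.7 CPM in WT (log2 fold change -1.30, edgeR adjusted p = 0.0337). The 2 others were Foxn1 (-0.78, edgeR adjusted p = 0.181) and Krt27 (-2.13, adjusted p = 0.110). Directions were mixed, since 5 of the 8 tested had positive and 3 negative log2 fold changes, with a median of 0.16. Hoxc13 had the largest positive one, 1.23 (edgeR adjusted p = 0.0970). The 12 markers summed to 146 to 289 CPM in cKO and 156 to 201 CPM in WT, with Gata3 among them at 77.8 to 184 CPM in cKO and 74.8 to 114 CPM in WT. The part of these cells in the Wnt10b values was not tested.

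The promoters of 4 members are shown because their genes carry the results by role: Wnt10b as the called ligand, Fzd4 and Fzd7 as the Frizzled receptors with the largest negative and positive fold changes, and Axin2 as the usual readout of β-catenin signalling. Each is the 250 bases before the annotated start on the gene's own strand, from RefSeq on GRCm38.p6. They span chr15:98778151-98778400 (minus strand) for Wnt10b, chr7:89404116-89404365 (plus) for Fzd4, chr1:59481897-59482146 (plus) for Fzd7 and chr11:108920099-108920348 (plus) for Axin2. Capitals mark matches to the binding letters of TCF/LEF factors, searched on both strands as CTTTG with 2 further letters, each A or T. Binding itself was not measured.
Wnt10b: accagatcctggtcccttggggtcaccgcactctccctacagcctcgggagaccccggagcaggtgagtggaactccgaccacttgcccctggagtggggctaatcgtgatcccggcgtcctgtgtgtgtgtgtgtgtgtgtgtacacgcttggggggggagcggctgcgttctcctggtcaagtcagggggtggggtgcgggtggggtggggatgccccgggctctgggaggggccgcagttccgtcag
Fzd4: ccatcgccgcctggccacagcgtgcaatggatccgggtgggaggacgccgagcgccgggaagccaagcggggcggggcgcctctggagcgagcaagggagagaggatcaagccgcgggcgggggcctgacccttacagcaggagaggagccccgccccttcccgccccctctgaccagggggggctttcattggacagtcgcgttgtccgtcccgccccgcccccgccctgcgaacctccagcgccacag
Fzd7: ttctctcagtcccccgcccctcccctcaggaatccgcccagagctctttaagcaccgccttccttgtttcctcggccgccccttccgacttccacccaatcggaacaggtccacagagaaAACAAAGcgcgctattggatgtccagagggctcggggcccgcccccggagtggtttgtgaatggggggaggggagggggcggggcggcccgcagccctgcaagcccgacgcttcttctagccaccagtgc
Axin2: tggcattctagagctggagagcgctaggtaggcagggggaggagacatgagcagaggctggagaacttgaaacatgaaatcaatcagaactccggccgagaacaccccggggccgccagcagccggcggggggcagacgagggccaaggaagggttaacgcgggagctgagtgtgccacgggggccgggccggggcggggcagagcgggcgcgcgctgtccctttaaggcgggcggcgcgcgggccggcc
Among these, Fzd7 held 1 match, on the reverse strand and 130 bases before the start, and the windows of Wnt10b, Fzd4 and Axin2 held 0. RefSeq promoters were matched for 25 of the 37 members, 35 windows in all, of which 5 (14.3%) held such letters. Over all 32851 promoter windows of the same length the share was 14.8%. A match is a description of the letters and no match says only that they are not in this window.

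Wnt5a, a ligand best known for signalling without β-catenin, stood lower in cKO but did not pass the genome-wide test. It was at 13.2, 12.2, 11.4 and 7.26 CPM in cKO replicates 1 to 4. In WT replicates 1 to 4 it was at 20.7, 41.7, 19.0 and 21.4 CPM, so that the groups did not overlap and WT replicate 2 stood far above the rest. Set cKO over WT, the log2 fold change was -1.22 ± 0.28 (SE), the edgeR adjusted p was 0.0652 and the exact permutation p was 0.0286. Without WT replicate 2 the log2 fold change was -0.88 (adjusted p = 0.107). WT replicate 2 also had the highest fibroblast marker sum, 10.7 CPM, with Col1a1, the type I collagen gene, at 3.01 CPM; the part of this in Wnt5a was not tested.

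Wnt4 stood at 168, 207, 157 and 86.0 CPM in cKO replicates 1 to 4 and at 255, 304, 199 and 215 CPM in WT replicates 1 to 4. Only cKO replicate 2 reached into the WT range. This gave a log2 fold change of -0.66 ± 0.25 (SE; edgeR adjusted p = 0.202). As a share of the summed FPKM of the 13 ligands, Wnt4 made up 46.5, 46.7, 43.1 and 33.4% in cKO replicates 1 to 4. The same share was 57.3, 59.3, 53.8 and 57.7% in WT replicates 1 to 4. These shares do not overlap, although the summed ligand FPKM itself did, at 72.8 to 108 in cKO and 92.3 to 131 in WT.

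Wnt10a had a fold change of the opposite sign. It stood at 64.2, 42.9, 43.6 and 59.7 CPM in cKO replicates 1 to 4 and at 42.9, 44.8, 37.7 and 36.5 CPM in WT replicates 1 to 4. The high values were those of cKO replicates 1 and 4, and the other cKO libraries lay within the WT range. The fitted log2 fold change came to 0.38 ± 0.15 (SE; edgeR adjusted p = 0.223). Its share of ligand FPKM was 34.6, 18.9, 23.4 and 45.2% in cKO replicates 1 to 4, against 17 to 19.9% in WT. In cKO replicate 4, Wnt10a and not Wnt4 was thus the leading ligand.

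Wnt6, the gene next to Wnt10a in the RefSeq order of GRCm38.p6, had a fold change of the same sign. It stood at 1.85, 2.13, 2.97 and 3.24 CPM in cKO replicates 1 to 4 and at 1.57, 1.80, 1.86 and 0.910 CPM in WT replicates 1 to 4. Only cKO replicate 1 fell within the WT range. Set cKO over WT, the log2 fold change was 0.73 ± 0.30 (SE; edgeR adjusted p = 0.239).

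The remaining ligands tested had an unadjusted p above 0.05 and overlapping groups. Wnt3, a canonical ligand, was the most uneven among cKO libraries, at 11.0, 37.1, 26.4 and 4.64 CPM in cKO replicates 1 to 4. In WT replicates 1 to 4 it was at 13.6, 14.0, 11.2 and 9.31 CPM, so that cKO libraries lay both above and below the WT range. Its log2 fold change of 0.72 had a 95% confidence interval of -0.45 to 1.89. Wnt7b, a further canonical ligand of skin, was at 30.2, 82.0, 62.3 and 28.2 CPM in cKO, around a narrow WT range of 47.3 to 53.9 CPM. Its log2 fold change was -0.03, and 0.01 with libraries scaled by size only. Wnt16 was at 1.26 to 7.72 CPM in cKO and 4.31 to 12.4 CPM in WT, with a log2 fold change of -0.87 (edgeR adjusted p = 0.408). Wnt3a was at 7.0 to 10.4 CPM in cKO and 5.94 to 10.9 CPM in WT. Wnt11, which acts largely without β-catenin, was at 1.31 to 4.83 CPM in cKO and 2.01 to 2.91 CPM in WT. Wnt5b and Wnt9a stayed below 1 CPM in every library, and Wnt7a, with 5 to 18 counts in each library, did not pass the filter. The fitted log2 fold change of Wnt9a was 0.66, and 1.81 without WT replicate 2 (edgeR adjusted p = 0.176).

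**Figure D3:**
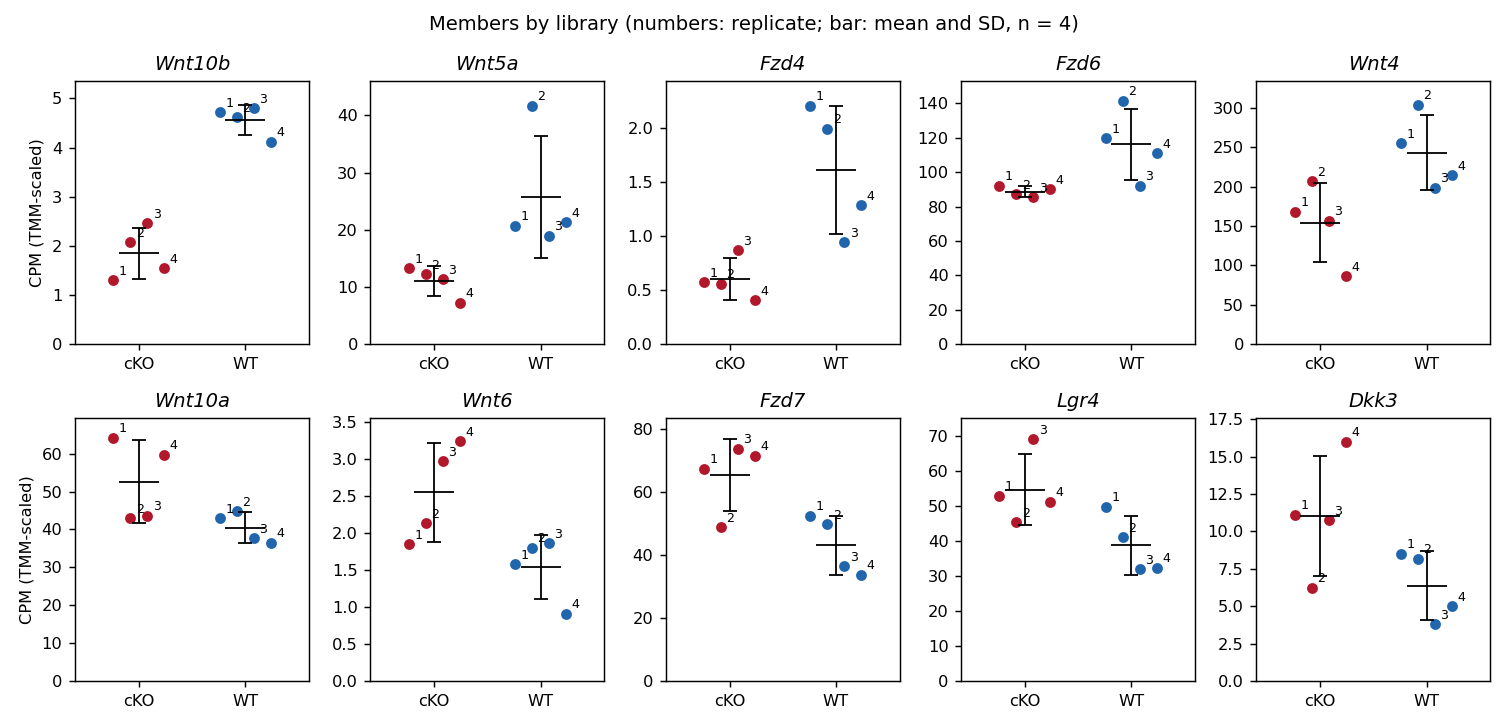
CPM by library for 10 members, cKO left of WT, with replicate numbers beside the points and bars for the mean and SD (n = 4). The groups are wholly apart for Wnt10b, Wnt5a and Fzd4, whereas Fzd7 and Lgr4 have higher means in cKO with overlapping libraries.

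Frizzled receptors bind the ligands at the cell surface. None of the 9 passed the genome-wide edgeR test, which called 185 of all genes. DESeq2, which called 1294 of all genes, called Fzd4 and Fzd7. An unadjusted edgeR p below 0.05 was reached by 4 (44.4% against 18.6% of all genes), 3 lower and 1 higher. Fzd4, which also serves as the receptor of Norrin in blood vessels, had the largest negative fold change of all members. It was at 0.572, 0.560, 0.868 and 0.404 CPM in cKO replicates 1 to 4. In WT replicates 1 to 4 it was at 2.20, 1.99, 0.944 and 1.28 CPM, so that the groups did not overlap, though cKO replicate 3 and WT replicate 3 lay close. This gave a log2 fold change of -1.41 ± 0.37 (SE), while the edgeR adjusted p was 0.0900 and the exact permutation p was 0.0286. At so low a level, cells other than keratinocytes are given beside it. The 6 endothelial markers, of which 2 passed the count filter, summed to 1.18 to 2.12 CPM in cKO and 2.60 to 3.57 CPM in WT. These sums did not overlap either. Within cKO, replicate 4 had the highest sum and the lowest Fzd4, and replicate 3 the lowest sum and the highest Fzd4. In WT, replicate 1 was highest in both. The part of endothelial cells in the Fzd4 values was not tested.

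Fzd6, the most abundant Frizzled receptor and a planar polarity gene that orients mouse hair, was at 92.14, 87.2, 85.3 and 90.2 CPM in cKO replicates 1 to 4. It was at 119.7, 141, 92.09 and 111 CPM in WT replicates 1 to 4. The cKO libraries lay close together, and the groups overlapped only where cKO replicate 1 met WT replicate 3. The fitted log2 fold change came to -0.39 ± 0.13 (SE; edgeR adjusted p = 0.15). Its share of the summed Frizzled FPKM was 26.7 to 32.3% in cKO and 36.8 to 42.6% in WT, with no overlap. Fzd5 was at 9.78, 14.3, 11.8 and 12 CPM in cKO replicates 1 to 4 and at 15.6, 16.0, 16.1 and 13 CPM in WT replicates 1 to 4. Its log2 fold change came to -0.34 ± 0.14 (SE; edgeR adjusted p = 0.243).

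Fzd7, a receptor often found in stem cells, was at 67.5, 48.8, 73.8 and 71.5 CPM in cKO replicates 1 to 4. It was at 52.5, 49.8, 36.4 and 33.8 CPM in WT replicates 1 to 4. All cKO libraries but replicate 2 lay above the WT range. Set cKO over WT, the log2 fold change was 0.60 ± 0.18 (SE; edgeR adjusted p = 0.125). The 5 other Frizzled receptors had overlapping groups, with log2 fold changes of 0.48 for Fzd3, 0.42 for Fzd2, 0.28 for Fzd1, 0.01 for Fzd10 and -0.03 for Fzd8, which turned to 0.04 with libraries scaled by size only. Fzd10 was uneven among cKO libraries in the manner of Wnt3, at 32.4, 84.1, 45.4 and 23.2 CPM in cKO replicates 1 to 4 and 34.8 to 59.4 CPM in WT.

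**Figure D4:**
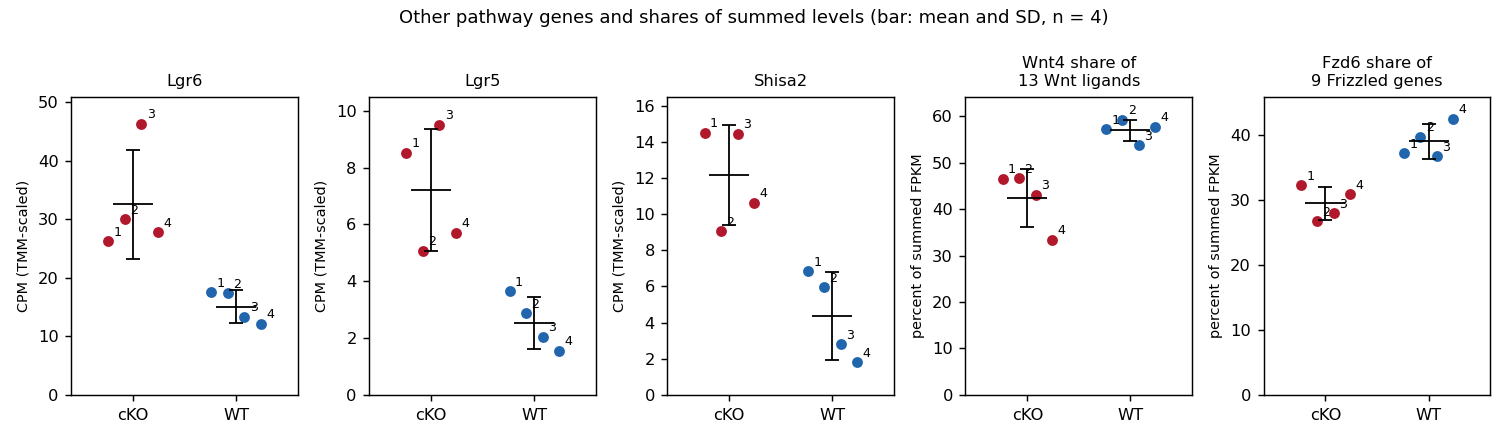
CPM of Lgr6, Lgr5 and Shisa2, then the percent of the summed FPKM of the 13 ligands held by Wnt4 and of the 9 Frizzled receptors held by Fzd6, per library with replicate numbers, mean and SD (n = 4). The cKO shares of Wnt4 and Fzd6 lie below all WT shares, and the cKO values of Lgr6, Lgr5 and Shisa2 lie above all WT values.

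Lrp5 and Lrp6 are the single-pass co-receptors whose phosphorylated tails recruit Axin. Lrp5, the more abundant by FPKM, was at 67.1, 90.6, 87.8 and 76.1 CPM in cKO replicates 1 to 4 and at 89.2, 97.4, 89.5 and 84.3 CPM in WT replicates 1 to 4. The groups overlapped, and the log2 fold change was -0.16 (95% confidence interval -0.42 to 0.09). Lrp6 was at 46.4 to 61.3 CPM in cKO and 46.5 to 50.2 CPM in WT, with a log2 fold change of 0.14 (95% confidence interval -0.09 to 0.36).

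Lgr4 is a receptor for R-spondins, secreted proteins that raise the number of Frizzled receptors on the cell. It was at 52.9, 45.5, 69.1 and 51.3 CPM in cKO replicates 1 to 4 and at 49.8, 41.1, 31.9 and 32.4 CPM in WT replicates 1 to 4. All cKO libraries but replicate 2 lay above the WT range. This gave a log2 fold change of 0.50 ± 0.18 (SE; edgeR adjusted p = 0.182). Rspo1, an R-spondin ligand, had 0 to 2 counts in each library and did not pass the filter.

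The secreted antagonists bind the ligands or the co-receptors outside the cell. Sfrp1, a decoy that resembles the ligand-binding domain of Frizzled, was the most abundant by FPKM. It was at 28.3, 37.6, 43.9 and 11.54 CPM in cKO replicates 1 to 4 and at 39.9, 37.8, 29.0 and 28.2 CPM in WT replicates 1 to 4. Its log2 fold change was -0.15 (95% confidence interval -0.92 to 0.61), and cKO replicate 4 was by far the lowest library. Dkk3, a divergent member of the Dickkopf family, was at 11.1, 6.22, 10.7 and 16.0 CPM in cKO replicates 1 to 4 and at 8.49, 8.16, 3.80 and 5.01 CPM in WT replicates 1 to 4. All cKO libraries but replicate 2 lay above the WT range. The fitted log2 fold change came to 0.79 ± 0.33 (SE; edgeR adjusted p = 0.241). Wif1, which binds Wnt proteins directly, was at 2.29, 0.224, 1.93 and 1.57 CPM in cKO replicates 1 to 4 and 0.361 to 0.885 CPM in WT. Here again cKO replicate 2 went against the other cKO libraries, as the lowest of all 8, and the log2 fold change of 1.18 had a 95% confidence interval of -0.16 to 2.52. Dkk2, which binds Lrp6, had 0 or 1 count in each cKO library and 0 in every WT library, where a count of 0 allows up to 3 counts, and was not tested.

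None of the 4 genes of the transcription arm passed the edgeR test, 0 had an unadjusted p below 0.05, and DESeq2 called 0. Ctnnb1 was at 695, 584, 587 and 701 CPM in cKO replicates 1 to 4 and at 647, 618, 623 and 606 CPM in WT replicates 1 to 4. The 2 high cKO libraries lay above the WT range and the 2 low ones below it. Set cKO over WT, the log2 fold change was 0.04, with a 95% confidence interval of -0.18 to 0.26. Among the DNA-binding partners of β-catenin, Tcf7l2 had a log2 fold change of 0.13, Tcf7 of 0.11 and Lef1 of 0.22, with overlapping groups. Tcf7 was at 10.3 to 19.3 CPM in cKO and 10.9 to 14.1 CPM in WT. It is also a T cell gene, and 8 T cell markers summed to 20.7 to 59.8 CPM in cKO and 15.3 to 74.5 CPM in WT. The highest cKO value of Tcf7 was in replicate 4, which had the lowest T cell marker sum of its genotype, whereas the highest WT value was in replicate 4, which had the highest sum of all 8 libraries. The part of T cells in the Tcf7 values was not tested. Lef1, a factor of the hair matrix, stayed below 1 CPM in every library.

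The feedback inhibitors are induced by β-catenin signalling and damp it. Axin2, a scaffold of the complex that destroys β-catenin, was at 29.0, 27.8, 29.8 and 39 CPM in cKO replicates 1 to 4. It was at 28.9, 28.9, 21.4 and 23.2 CPM in WT replicates 1 to 4. The groups overlapped, and the log2 fold change came to 0.30 ± 0.15 (SE; edgeR adjusted p = 0.319). Rnf43 and Znrf3 are membrane ubiquitin ligases that remove Frizzled receptors. Rnf43 was at 11.1 to 12.8 CPM in cKO and 11.3 to 12.8 CPM in WT, and Znrf3 was at 17.7 to 18.5 CPM in cKO and 15.8 to 20.9 CPM in WT. Their log2 fold changes were 0.01 (95% confidence interval -0.24 to 0.26) and -0.05 (95% confidence interval -0.29 to 0.20), the second turning to 0.01 with libraries scaled by size only.

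Several ligands had uneven values among the cKO libraries, a pattern singled out after the values were seen and given without a test. In 9 members cKO replicates 2 and 3 both lay above replicates 1 and 4, namely Wnt3, Wnt5b, Wnt7b, Wnt10b, Wnt11, Wnt16, Fzd10, Lrp5 and Sfrp1. In 6 members they both lay below, namely Wnt10a, Fzd1, Fzd2, Fzd6, Dkk3 and Ctnnb1. The share with replicates 2 and 3 above was 26.5% of the members tested and 28.1% of all genes tested, and the share below was 17.6% of the members and 25.9% of all genes. The highest cKO library exceeded the lowest 8.0-fold for Wnt3 and 2.91-fold for Wnt7b, while the same ratio in WT was 1.5 and 1.14. The standard deviation of log2 CPM was larger in cKO than in WT for 22 of 34 members (64.7%) and for 69.7% of all genes. Loricrin (Lor), a protein of the cornified envelope, was at 1940, 3484, 2499 and 834 CPM in cKO replicates 1 to 4, so replicates 2 and 3 were highest there too. Its WT range was 392 to 1514 CPM. Of the 10 keratinocyte markers, Krt10 and Ivl shared this order with Lor. Krt5 and Krt14 had the opposite order, with replicates 2 and 3 lowest, at 7491 and 6643 CPM for Krt5. Krt1, Krt15, Krtdap, Trp63 and Dsp had neither order. The part of keratinocyte state in the pattern was not tested.

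**Figure D5:**
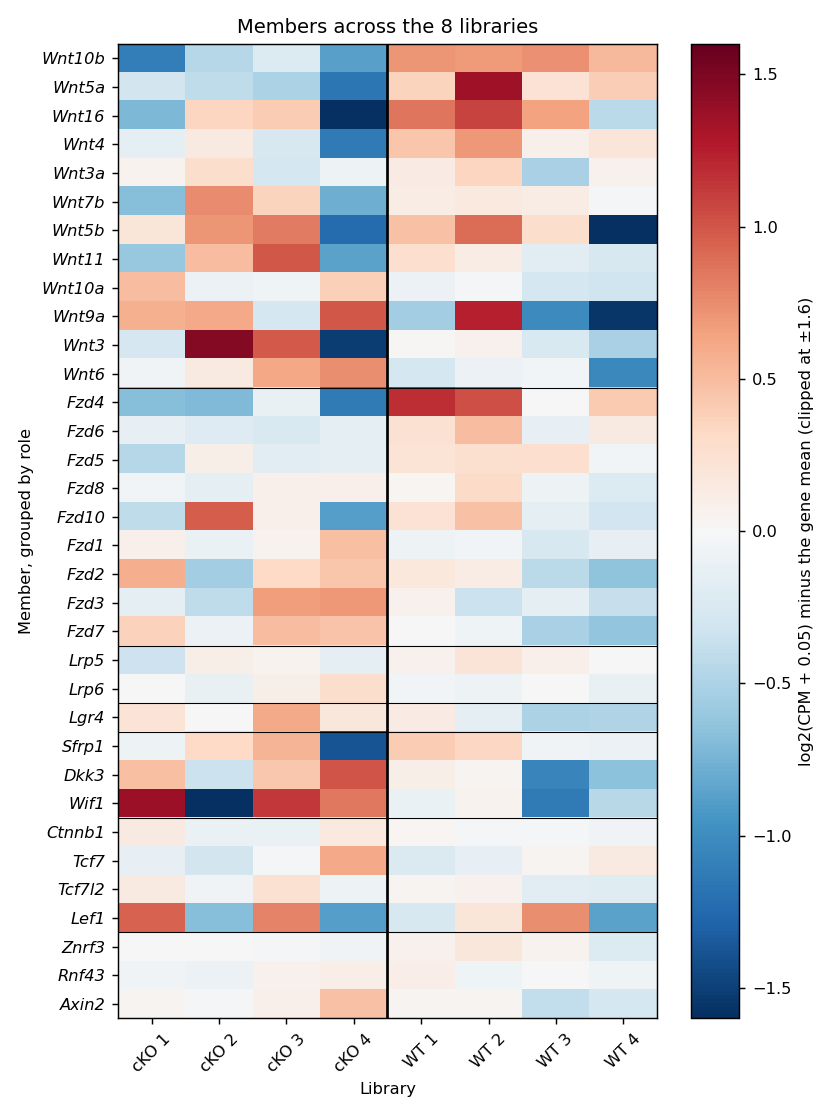
Level of the 34 members tested in each library, as log2(CPM + 0.05) minus the member's mean over the 8 libraries, with colours clipped at 1.6 either way, grouped by role, cKO columns left of WT columns. Wnt3, Wnt7b and Wnt11 are high in cKO replicates 2 and 3 and low in replicates 1 and 4, and the WT columns are more even for these genes.

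Beyond the 37 members, 75 further pathway genes were listed by role, of which 68 were in the table, 53 passed the filter and 1 was called. The 7 that were not found are not analysed here. The single call, 1.89% of those tested, was higher in cKO, where the background for higher calls was 0.671%. An unadjusted p below 0.05 was reached by 11 of them (20.8% against 18.6% of all genes), and 6 had groups that did not overlap (11.3% against 11.1%). The called gene was Lgr6, an R-spondin receptor of the same family as Lgr4 and a stem cell marker of the upper hair follicle. It was at 26.2, 30.0, 46.3 and 27.8 CPM in cKO replicates 1 to 4 and at 17.6, 17.3, 13.4 and 12.1 CPM in WT replicates 1 to 4. It rose 2.16-fold in cKO, with a log2 fold change of 1.11 ± 0.21 (SE) and an edgeR adjusted p of 0.0386. That call was lost without cKO replicate 1 or 3 and without any single WT library, with adjusted p-values of 0.0558 to 0.117 and log2 fold changes of 0.90 to 1.21.

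Lgr5, the third R-spondin receptor and a marker of cycling follicle stem cells, was at 8.53, 5.07, 9.50 and 5.71 CPM in cKO replicates 1 to 4. It was at 3.64, 2.88, 2.06 and 1.55 CPM in WT replicates 1 to 4. The groups did not overlap, and the log2 fold change of 1.51 ± 0.31 (SE) had an edgeR adjusted p of 0.0530. All 8 receptors and co-receptors tested on this list had positive log2 fold changes, with a median of 0.69. Besides Lgr5 and Lgr6, the receptor kinase Ror1 (1.37, edgeR adjusted p = 0.204) and the Dickkopf receptor Kremen2 (0.53, adjusted p = 0.265) had an unadjusted p below 0.05. The most abundant of them by FPKM, the Wnt-binding Ryk, had a log2 fold change of 0.18. Lgr5 and Lgr6 are also members of the outer root sheath and follicle stem cell list, of which 11 of 12 genes had positive log2 fold changes, with a median of 1.03. In that list 3 genes rose, which is 25% against 0.671% of all genes, and 7 were higher in cKO without overlap, which is 58.3% against 11.1% of all genes without overlap in either direction. These counts include the genes they are set beside: Lgr6 was among the 3, with Krt75 and Krt79, and Lgr5 and Lgr6 were both among the 7. For Lgr5 and Lgr6, the level per cell and the number of such cells cannot be told apart.

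Shisa2, which holds immature Frizzled receptors inside the cell, was at 14.5, 9.05, 14.5 and 10.6 CPM in cKO replicates 1 to 4. It was at 6.84, 5.94, 2.80 and 1.82 CPM in WT replicates 1 to 4. The groups did not overlap, and the log2 fold change of 1.48 ± 0.39 (SE) had an edgeR adjusted p of 0.0905. Sostdc1, the most abundant inhibitor on the list by FPKM, had a log2 fold change of -0.10. In the cytoplasm, Csnk1e, a kinase that acts on Dishevelled, had a log2 fold change of 0.55 (edgeR adjusted p = 0.121). Tnks2, a tankyrase that marks Axin for destruction, had one of -0.25 (adjusted p = 0.157). Both had groups that did not overlap, as did Cby1, an antagonist of β-catenin, at 0.14 (adjusted p = 0.524). Csnk1a1, a kinase that starts the marking of β-catenin, was the most abundant cytoplasmic gene by FPKM, with a log2 fold change of -0.23.

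In the nucleus, the follicle stem cell factor Sox9 had a log2 fold change of 0.62 (edgeR adjusted p = 0.162) and the co-repressor gene Tle4 one of -0.48 (adjusted p = 0.193). Tle5, the most abundant nuclear gene by FPKM, had one of -0.15. For the secretion of ligands, Porcn, the enzyme that attaches their lipid, had a log2 fold change of -0.37 (edgeR adjusted p = 0.240), and their carrier Wls, the most abundant gene of its list by FPKM, had one of 0.04. Among planar polarity genes, Celsr3, below 1 CPM in every library, had a log2 fold change of 1.40 (edgeR adjusted p = 0.138). The most abundant by FPKM, Daam1, had one of -0.15.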

How the data were processed

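RNA of epidermis from 8 imiquimod-treated mice (4 cKO and 4 WT, per the series design) was sequenced. The authors deposited raw read counts per gene symbol and FPKM values. HISAT2 and HTSeq were used, per the submitters' processing notes; the sources used here give no versions, genome build, annotation or strand setting. The deposited FPKM equal count over length and total for 20863 of 20863 genes checked (relative tolerance 1e-04), so both tables hold the same reads.

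Counts were tested, cKO over WT, with the quasi-likelihood test of edgeR 4.0.16 in R 4.3.3. The filter was filterByExpr, which left 14004 of 23171 genes, library sizes were scaled with TMM factors (0.934 to 1.08), and p-values were adjusted by Benjamini-Hochberg over all genes tested, with calls at an adjusted p below 0.05. Intervals and SE of log2 fold changes come from that fit, and CPM use the TMM-scaled sizes. Exact permutation tests compared log2 CPM over the 70 splits of 4 against 4. No pair of libraries within a genotype agreed within sampling noise (lowest chi-square per degree of freedom 47.9).

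Members and lists were chosen with earlier results of these data known. Genes given in full are members that were called, had an unadjusted p below 0.05, had groups that did not overlap or led their role by FPKM. Wnt3, Wnt7b, Fzd10 and Wif1 met none of these and are given by library because their values were seen to be uneven. Other pathway genes are named if they were called, had an unadjusted p below 0.05 or led their list by FPKM. Cby1 met none of these and was named after its groups were seen not to overlap. Alternatives were DESeq2 1.42.0, RLE factors, library size only, no filter, at least 1 CPM in 4 libraries, limma 3.58.1 on log2(FPKM + 1) and log2(FPKM + 0.1) at a mean of at least 0.5 FPKM, a replicate block and leaving out each library.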

Additional observations from a re-analysis of the deposited data

Results flagged for a closer look

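A single library stood far from the 3 others of its genotype for 5 of 104 gene and genotype groups examined, and chance alone flags about 1 in 20 groups. Wnt5a was at 41.7 CPM in WT replicate 2, where the next highest WT library had 21.4 CPM. Wnt9a was at 0.857 CPM in WT replicate 2, with 0.210 CPM in the next highest. Fzd5 was at 13 CPM in WT replicate 4, below the 15.6 CPM of the next lowest WT library. Celsr3 was at 0.359 CPM in WT replicate 2, with 0.167 CPM in the next highest. Daam1 was at 211 CPM in cKO replicate 2, with 161 CPM in the next highest cKO library. Of these 5 values, 3 came from WT replicate 2, the library with the highest fibroblast marker sum. The part of fibroblasts in these values was not tested.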

How the results depend on the processing

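The count of called members, 1 in the main edgeR fit, was 4 with DESeq2 (Fzd4, Fzd7, Wnt10b and Wnt5a) and 2 with no filter (Wnt10b and Wnt5a). The count over all genes, 185, was 1294 with DESeq2 and 349 with no filter. The number of genes tested differs between these settings, so the counts are not given as shares. The count of other pathway genes called, 1, was 5 with DESeq2, 2 with library size only, 2 with no filter and 0 with limma on log2(FPKM + 1), where 8 had an unadjusted p below 0.05. With each library left out, these counts ran from 0 to 1 for members (7 to 16 with an unadjusted p below 0.05), 8 to 506 for all genes (8 without WT replicate 3, 506 without cKO replicate 2) and 0 to 4 for other pathway genes. The cause of these differences was not tested. Counts at an unadjusted p below 0.05 in this section have no share of all genes beside them, so they only describe each fit. Replicate numbers gave correlations of -0.10 to 0.19 between same-numbered libraries and were not taken as pairs. The replicate block gave 0 called members (edgeR, 10 with an unadjusted p below 0.05), 216 called genes and 1 other pathway gene (Csnk1e), with Wnt10b at -1.34 (adjusted p = 0.0558) and Lgr6 at 1.09 (adjusted p = 0.0604). Log2 fold changes near 0 changed sign: with library size only and limma on log2(FPKM + 1) and log2(FPKM + 0.1), Wnt3a was 0.017, 0.030 and 0.045, Fzd8 0.038, 0.023 and 0.037, and Znrf3 0.013, 0.012 and 0.018. Wnt7b was 0.015 with library size only, and Fzd10 was -0.053 and -0.063 on the FPKM scales and -0.12 with the block. With single libraries left out, signs also changed within these ranges: Wnt3a -0.18 to 0.095, Wnt5b -0.29 to 0.47, Wnt7b -0.34 to 0.17, Wnt11 -0.21 to 0.43, Fzd8 -0.10 to 0.089, Fzd10 -0.43 to 0.23, Sfrp1 -0.38 to 0.12, Lef1 -0.11 to 0.57, Tcf7 -0.11 to 0.24, Rnf43 -0.019 to 0.064, Znrf3 -0.13 to 0.016, Wls -0.043 to 0.12, Sostdc1 -0.28 to 0.087 and Daam1 -0.25 to 0.021. Of 416 values with a library left out, 373 kept their direction and their side of the threshold, and of 396 values under other settings, 369 did. Most of these values are of genes not called in the main fit, which had no call to lose. For Wnt10b and Lgr6, which were called, the call was lost in 6 of the fits with a library left out for each gene. Scaling moved the median log2 fold change of all genes by at most 0.06. Low counts limit Wnt9a, Wnt5b, Lef1 and Fzd4.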

Other observations

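Across the 8 libraries, the genes whose log2 CPM followed Wnt10b most closely were Adamtsl5 (Pearson r = 0.980), Gm39503 (0.979), Ash2l (0.974), Slc44a1 (0.974) and Cask (0.974). All 5 had negative log2 fold changes, from -1.47 for Gm39503 to -0.25 for Slc44a1, and Cask was also called (edgeR adjusted p = 0.0417). The points share the libraries and the genotype difference by which Wnt10b was picked, so these values only describe the likeness.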
